A study of Mus musculus with 15 samples.

Results

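The libraries described here are the 6 made at circadian time (CT) 4 h, out of 15 in the study. They were picked out by their labels, with earlier results of these data known. Of the 6, 3 were labelled REV-ERBS DKO, a double knockout of the REV-ERB receptors by its label, and 3 were labelled control. All came from C57BL/6 mice aged 8 to 12 weeks, and each held total RNA of 2 to 4 punches of the suprachiasmatic nuclei (SCN) pooled together. CT4 lies in the subjective day, when a mouse kept without light cues is at rest. The other 9 libraries, 4 DKO and 5 control, were taken at CT16 in the subjective night, and are used for the estimate of spread and for side by side values. The labels used here give neither a Cre driver nor the exons removed, so in which cells the receptors were lost is not known from them.

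The SCN is the paired hypothalamic nucleus that keeps daily time for the body. Its neurons hold a transcription loop in which CLOCK or NPAS2 with BMAL1 activate the Per, Cry and Rev-erb genes through E-boxes, and the Period and Cryptochrome proteins then block that activation. REV-ERB alpha and beta, encoded by Nr1d1 and Nr1d2, are haem-binding nuclear receptors that lack an activation function. They recruit the NCoR and HDAC3 corepressor complex to DNA elements (ROREs) that they share with the ROR activators, and so repress Bmal1, Npas2, Nfil3 and other genes for part of the day. In other tissues REV-ERBs are also known as regulators of lipid metabolism, inflammation and muscle.

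The 6 libraries held 33168251 to 48392442 counts each, and 16910 genes passed the filter on low counts. Levels are given as CPM, the counts of a gene scaled to the TMM-adjusted size of its library, and always in the order of replicates 1, 2 and 3. Differences are log2 fold changes of DKO against control ± standard error, from 1 model of all 15 libraries (edgeR quasi-likelihood test). A gene is called when its p-value adjusted over all 16910 genes (Benjamini-Hochberg) is under 0.05, and "rose" and "fell" are used of called genes only. The mice behind each pool are not named in the labels, and the p-values therefore reflect how far pools varied, which may be partly technical.

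Tissue markers differed between the libraries, and 1 control library stood apart. A score for each marker list was the mean log2 CPM of its genes, each gene centred on its mean over the 15 libraries. For neighbouring hypothalamic nuclei (25 genes), the score was 0.97, 0.76 and 0.65 in the DKO libraries. In control libraries it was 0.55, -0.83 and -0.39, so that control replicate 1 lay next to the DKO libraries and apart from the other controls. The summed level of the same list was 1007, 934.9 and 907 CPM in DKO and 903.5, 472.1 and 569.4 CPM in control. For SCN identity factors and markers (18 genes) the sums were 1128, 1159 and 1185 CPM in DKO and 1405, 1627 and 1453 CPM in control, and the groups did not overlap. Their scores were -0.41, -0.52 and -0.44 in DKO against -0.20, 0.68 and 0.54 in control, where replicate 1 again lay nearest to DKO. None of the 18 SCN markers and none of the 25 neighbouring markers was called, but the medians of their log2 fold changes were -0.88 and 0.92, against -0.002 for all genes tested. Without control replicate 1 these medians were -1.095 and 1.481, and 1 SCN marker was called lower and 1 neighbouring marker higher.

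Single markers show the same spread. Vip, a peptide of the light-receiving SCN core, stood at 27.9, 22.3 and 24.6 CPM in DKO and 39.3, 130 and 92.2 CPM in control. Its log2 fold change was -1.80 ± 0.62, but the edgeR test gave an adjusted p of 0.199, and control replicate 1 lay much nearer the DKO libraries than the other controls did. Nms, another SCN peptide, stood at 4.19, 3.1 and 4.91 CPM in DKO and 6.77, 18.9 and 14.9 CPM in control. Pomc, made by arcuate neurons outside the SCN, stood at 86.9, 138 and 170 CPM in DKO and 130, 40.9 and 15.9 CPM in control. Avp, the peptide of the SCN shell and of neighbouring magnocellular neurons, stood at 444, 498 and 462 CPM in DKO and at 681, 72.3 and 235 CPM in control, the widest spread being within the controls. In punches, fewer cells of a type and less RNA per cell cannot be told apart.

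Lists of other cell types overlapped between the groups in part. Summed myelin markers (14 genes) ran from 6621 to 7435 CPM in DKO and 5812 to 8311 CPM in control, and summed microglial markers (15 genes) from 378.9 to 419.2 CPM and 347.2 to 415.7 CPM. Astrocyte markers (14 genes) summed to 4287 to 4313 CPM in DKO and 4506 to 4707 CPM in control, lower in DKO without overlap. The summed pan-neuronal markers (12 genes) were higher in DKO, at 6518 to 6816 CPM against 6164 to 6227 CPM. GABAergic markers (8 genes) summed to 1634 to 1964 CPM in DKO and 1834 to 2452 CPM in control, which overlapped, and all 8 had log2 fold changes below 0 with a median of -0.22. Glutamatergic markers (7 genes) summed to 923.3 to 996 CPM in DKO and 784 to 913.1 CPM in control. Choroid plexus markers (8 genes) summed to 49.2 to 56.2 CPM in DKO and 40.8 to 47.9 CPM in control. The sums of these 2 lists did not overlap, but their scores did. Fenestrated endothelium summed to 80.2 to 97.5 CPM in DKO and 32.5 to 46 CPM in control, and pericytes and smooth muscle to 141.8 to 158.6 CPM and 165.2 to 183.1 CPM, both without overlap. The called gene Plvap made up most of the fenestrated sum in DKO, and the rest of that sum overlapped between the groups. The score of ependyma and tanycytes was 0.31 to 0.53 in DKO and -0.46 to 0.24 in control, and that of preoptic and septal neurons -0.43 to 0.24 and -0.86 to -0.58, again without overlap of the scores. The sums of both lists did overlap. Ependyma and tanycytes summed to 376.9 to 407.7 CPM in DKO and 362.6 to 378.2 CPM in control. For preoptic and septal neurons the sums were 280.1 to 343.2 CPM in DKO and 293.9 to 399.7 CPM in control. The 4 haemoglobin genes had 0 counts in all 6 libraries. Among defining markers of other regions, the cortical gene Neurod6 had 0 counts in DKO replicates 1 and 2 and in control replicate 3, the choroid plexus factor Otx2 had 0 in DKO replicate 2, and Kiss1 and Lmx1b had 0 in control replicates 2 and 3 respectively. Of the marker genes in all 18 tissue lists, Plvap alone was called.

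**Figure D1:**
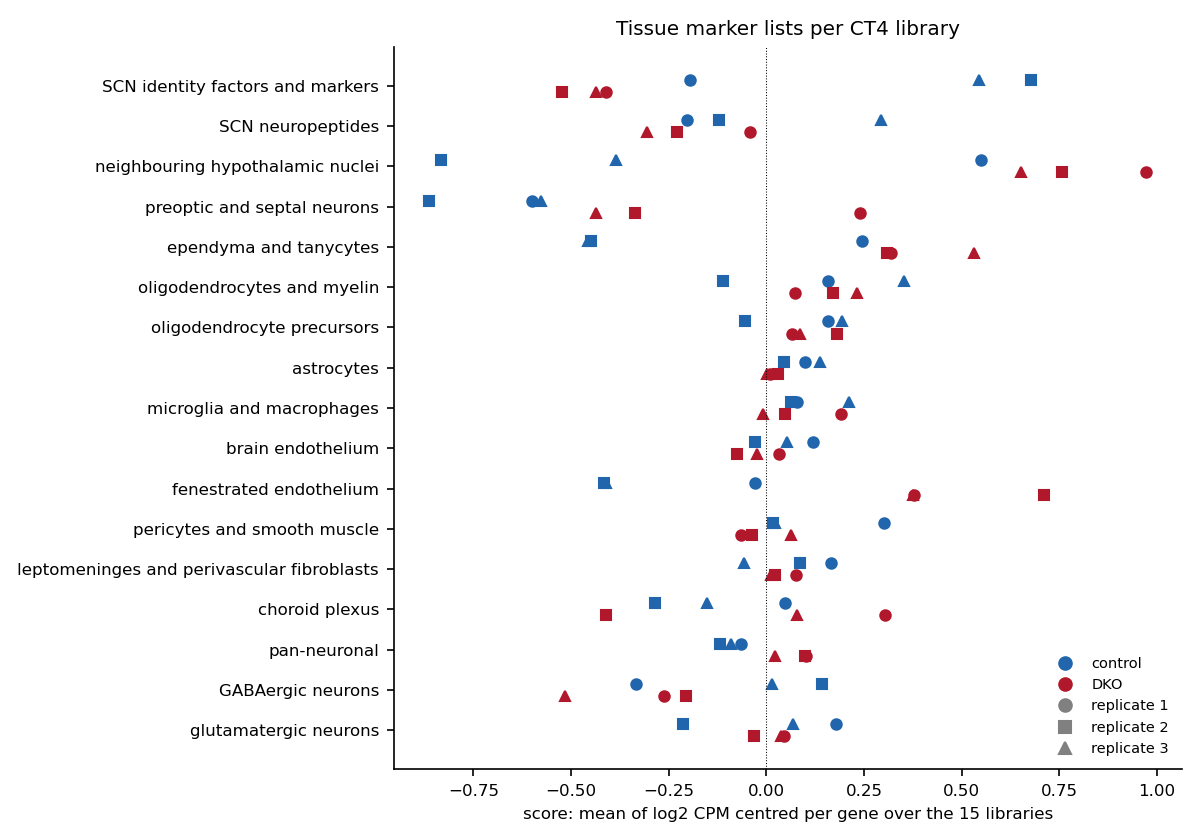
Scores of 17 tissue marker lists (x axis: mean of log2 CPM centred per gene over the 15 libraries) in each of the 6 CT4 libraries, control in blue and DKO in red, with the marker shape giving the replicate. For neighbouring hypothalamic nuclei, control replicate 1 lies at 0.55 beside the DKO libraries at 0.65 to 0.97, while the other controls lie at -0.83 and -0.39.

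Over all genes, 217 of 16910 (1.28%) were called between DKO and control at CT4 by the edgeR quasi-likelihood test. Of these, 97 were higher (0.574% of genes tested) and 120 lower (0.71%) in DKO. Changes were moderate: the median absolute log2 fold change of called genes was 0.40, and 23 rose and 9 fell by more than 2-fold. In all 217 every DKO library lay on one side of every control, as it did in 25.4% of all genes tested, so a lack of overlap alone says little about a gene. At an unadjusted p under 0.05 there were 2501 genes. By RefSeq biotype, 94 of the rises and 107 of the falls were protein coding, and 2 and 4 were long noncoding RNAs.

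The calls depended on single libraries. Without control replicate 1, 190 genes were called and 130 of the 217 were among them (56 of 97 rises and 74 of 120 falls). Without control replicate 2 or 3, 19 and 16 genes were called, and all of them were among the 217. Without DKO replicate 1, 2 or 3, 39, 24 and 31 of the 217 were called. With the score of neighbouring nuclei as a covariate, 25 genes were called, 24 of them among the 217 and 20 of the 25 higher in DKO. Placed on a line from the DKO mean at 0 to the mean of the other 2 controls at 1, control replicate 1 had a median position of 0.878 over the rises and 0.785 over the falls. It was the control closest to DKO for 49 of 97 rises (50.5%) and 76 of 120 falls (63.3%), and for 18 falls it lay nearer to DKO than to the other controls.

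Through all 19 alternatives, 7 rises kept their call: Nfil3, Cry2, Cdkn1a, Tsc22d3, Plvap, Etnppl and C2cd4b. So did 2 falls, among them that of Mfge8. Npas2, Ednrb and Plxna3 lost the call in 1 alternative each, and Fabp7, Lbp, Pltp, Rbm3, Rps24, Ttll3 and Zmym1 in 2 each. The median number of alternatives that ended a call was 8 for rises and 9 for falls. None of the called genes changed sign in any of them. C2cd4b, which encodes a nuclear localised factor, and Zmym1 were chosen after their values were seen.

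**Figure D2:**
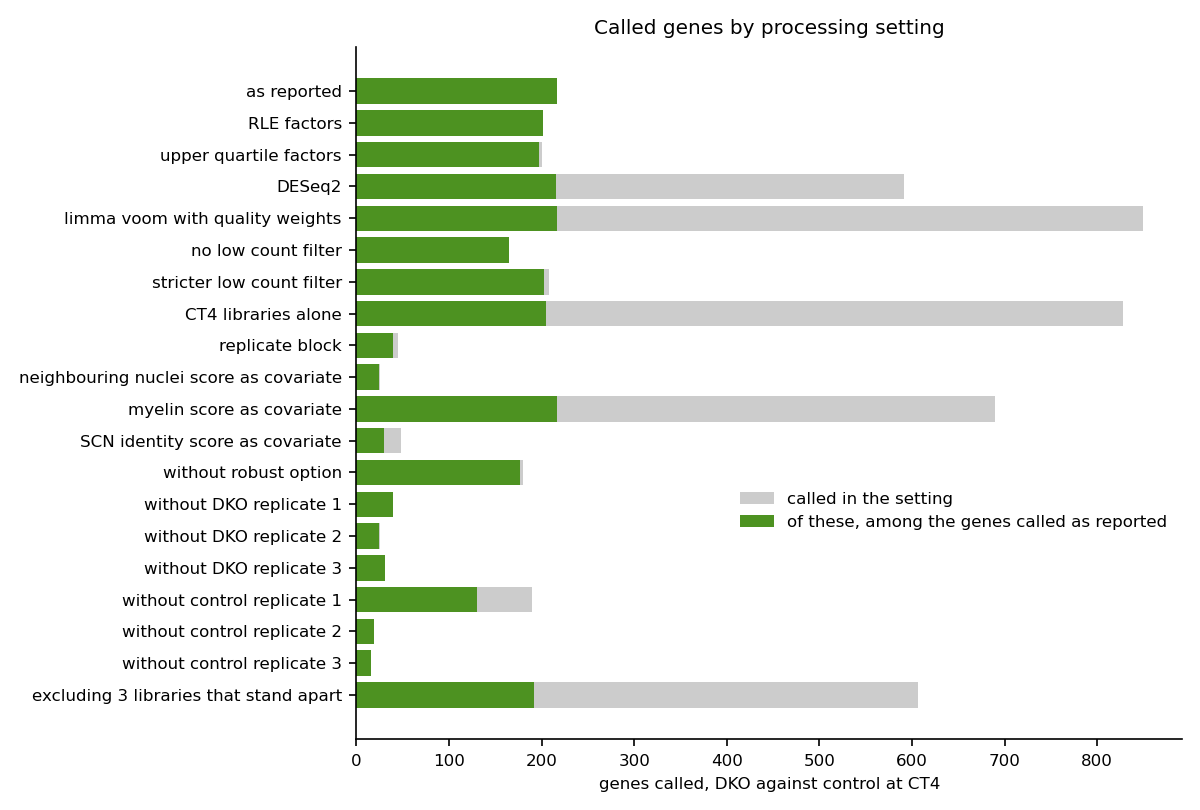
Number of genes called between DKO and control at CT4 (x axis) under each processing setting, with those shared with the 217 called genes in green and further genes in grey. Leaving out control replicate 2 or 3 leaves 19 and 16 genes, and leaving out control replicate 1 leaves 190, of which 130 are shared.

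The targeted genes come first. Nr1d1 (chromosome 11, 98767932 to 98775377, mm10) stood at 226, 252 and 242 CPM in DKO and 198, 282 and 248 CPM in control, so the groups overlapped. Nr1d2 (chromosome 14, 18204056 to 18239106) stood at 181, 163 and 166 CPM in DKO and 122, 130 and 116 CPM in control. Every DKO library lay above every control, and Nr1d2 rose by 0.47 ± 0.09 (edgeR, adjusted p = 0.0212). Its call was kept without control replicate 1 but lost in 6 of 19 alternatives. Reads of every exon enter the count, so a transcript with some exons deleted still contributes and these levels cannot check the genotype.

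Several clock genes rose and none fell. Nfil3, a repressor that competes with DBP at D-boxes, stood at 22.9, 23.7 and 21.2 CPM in DKO and 9.62, 7.99 and 9.11 CPM in control. The libraries within a group lay close together, and Nfil3 rose by 1.35 ± 0.16, with log2 fold changes of 1.27 to 1.55 over the 19 alternatives. Npas2, which pairs with BMAL1 in place of CLOCK, stood at 33.5, 44.7 and 43.3 CPM in DKO and 17.8, 18.6 and 16.5 CPM in control, and rose by 1.20 ± 0.17. Cry1, which encodes a repressor of CLOCK and BMAL1, stood at 41.4, 41.2 and 47.2 CPM in DKO and 27.3, 26.8 and 25.7 CPM in control. It rose by 0.70 ± 0.14, but without control replicate 1 the edgeR adjusted p was 0.0534. Arntl, which encodes BMAL1, had the same order of libraries, at 63.2, 66.6 and 63.3 CPM against 41.1, 43 and 39.2 CPM, and was not called (0.65 ± 0.16, edgeR adjusted p = 0.0661). Of 8 genes listed as activators or as holding ROR and REV-ERB elements, 3 rose (Nfil3, Npas2 and Cry1) and 5 were not called. Clock itself stood at -0.08 ± 0.07 and overlapped between the groups.

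On the repressor side, 5 of 12 genes rose and 7 were not called, with a median log2 fold change of 0.41 over the 12. Cry2 stood at 163, 172 and 157 CPM in DKO and 123, 124 and 118 CPM in control, and rose by 0.43 ± 0.06. Dbp, an activator at D-boxes that is driven from E-boxes, stood at 61.9, 68.6 and 64 CPM in DKO and 33.6, 33.3 and 38 CPM in control. Its rise of 0.89 ± 0.18 had an edgeR adjusted p of 0.0361, and of 0.0754 without control replicate 1. Bhlhe40, which binds E-boxes and represses them, and Per3 rose by 0.50 ± 0.10 and 0.42 ± 0.09. Per1 (-0.04 ± 0.13) and Per2 (0.06 ± 0.23) were not called, and DKO replicate 3 stood apart for Per2 at 75.4 CPM against 47 and 47.4 CPM in the other DKO libraries. With the score of neighbouring nuclei as a covariate, Nr1d2, Cry2, Npas2 and Nfil3 were still called, at 0.58, 0.50, 1.48 and 1.55, and Arntl gained a call, at 0.87 (edgeR adjusted p = 0.0254). Cry1, Dbp, Bhlhe40 and Per3 lost theirs with that covariate (edgeR adjusted p = 0.0594, 0.0965, 0.162 and 0.18). Arntl, Clock, Per1 and Per2 are named because of their place in the clock, after their values were seen.

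Promoter sequences were searched for the core of the RORE, which is the half-site bound by REV-ERBs and RORs. RefSeq promoters of build GRCm38.p6 (250 bases before to 50 after the start) were at hand for 12563 tested genes, 80 of them called higher and 89 called lower. The core, TAGGTCA or TGGGTCA on either strand, lay in 17.5% of the promoters of risen genes (14 of 80), in 11.2% of those of fallen genes (10 of 89) and in 6.35% of all. The plain half-site AGGTCA, which the first of these cores contains, lay in 21.2%, 12.4% and 15.4%. The E-box CACGTG lay in 16.2% of promoters of risen genes, 8.99% of fallen and 10.9% of all, and the D-box (TTATGTAA or TTACGTAA) in 1.25%, 0.0% and 0.963%. The cyclic AMP element TGACGTCA lay in 6.25%, 3.37% and 3.28%. Genes with several starts have several windows, 1.34 a gene among the risen and 1.26 among all, and no test was made. A match is a run of letters and not a binding site.

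The 4 promoters below are of risen genes with large log2 fold changes and a core before the start, and show where it lies. Each is written 5′ to 3′ on the gene's own strand, capitals mark the core, and in all 4 the core reads on the opposite strand, so that the capitals are its reverse complement. It begins 236 bases before the start of Cplx3, 78 before Aoc1, 12 before Nfil3 and 171 before Fabp7. The windows are chr9:57606471-57606531 (minus strand), chr6:48895137-48895223 (plus strand), chr13:52981040-52981091 (minus strand) and chr10:57784712-57784798 (plus strand) in that order, and overlap no annotated exon.
Cplx3: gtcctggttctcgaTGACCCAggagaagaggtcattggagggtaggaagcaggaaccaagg
Aoc1: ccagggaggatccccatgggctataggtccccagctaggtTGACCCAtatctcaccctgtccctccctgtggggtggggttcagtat
Nfil3: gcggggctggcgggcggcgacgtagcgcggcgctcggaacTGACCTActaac
Fabp7: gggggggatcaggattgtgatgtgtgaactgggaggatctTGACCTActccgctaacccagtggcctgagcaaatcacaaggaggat

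Plvap, Crispld2, Spon2 and Car14 were among the larger rises. Plvap (chromosome 8, 71497753 to 71511769, mm10), which forms the diaphragms of fenestrated capillaries, stood at 52.1, 67.5 and 54.5 CPM in DKO and 17.3, 10.3 and 7.66 CPM in control. The lowest DKO library lay far above the highest control, and Plvap rose by 2.29 ± 0.26 (edgeR, adjusted p = 0.00259), or by 2.69 without control replicate 1. The other genes of the fenestrated endothelium list were not called: Igfbp3 stood at 0.51 ± 0.15, Esm1 at 0.36 ± 0.56 and Vwf at -0.08 ± 0.12. None of 14 markers of brain endothelium was called, and their median was -0.06. Crispld2, a secreted protein, stood at 12.7, 13.8 and 13.8 CPM in DKO and 5.82, 4.77 and 3.95 CPM in control, and rose by 1.46 ± 0.27. Crispld2 and Spon2 lost their calls with the score of neighbouring nuclei as a covariate (edgeR adjusted p = 0.125 and 0.0992). Spon2, a secreted protein of the spondin family, stood at 3.53, 7.13 and 5.66 CPM in DKO and 1.37, 0.288 and 0.29 CPM in control. Control replicate 1 lay between the other controls and the DKO libraries, and the rise of Spon2 was 3.02 ± 0.56 with it and 4.22 without it. Car14, a membrane carbonic anhydrase, stood at 38.6, 50.8 and 46.5 CPM in DKO and 17, 10.5 and 13.8 CPM in control. It rose by 1.72 ± 0.37, with edgeR adjusted p-values of 0.0493 with all libraries and 0.0704 without control replicate 1. With the score of neighbouring nuclei as a covariate Car14 was not called either (edgeR adjusted p = 0.175).

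Some other matrix genes fell. Of 29 genes of basement membranes and collagens, Col9a3 fell (19.8, 22.3 and 17.1 CPM against 27.4, 38.8 and 35.2 CPM, -0.78 ± 0.18, and not called with the score of neighbouring nuclei as a covariate), 28 were not called, and 21 lay below 0. Ncan, a proteoglycan of the perineuronal matrix, fell by 0.35 ± 0.08. It lost its call with the score of neighbouring nuclei as a covariate and without control replicate 1 (edgeR adjusted p = 0.0684 and 0.0749). Of 42 laminins and integrins, Itga10, a collagen receptor subunit, fell by 0.68 ± 0.14 and no other member was called. Papln, Thbs3 and Susd5, also parts of the matrix or binders of it, fell by 0.58 ± 0.13, 0.47 ± 0.11 and 0.56 ± 0.13. Without control replicate 1, Itga10, Papln and Susd5 were not called (edgeR adjusted p = 0.0536, 0.0992 and 0.0603), and with the covariate none of Itga10, Papln, Thbs3 and Susd5 was (0.18, 0.0852, 0.325 and 0.26). Papln, Thbs3 and Susd5 were chosen after their values were seen.

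**Figure D3:**
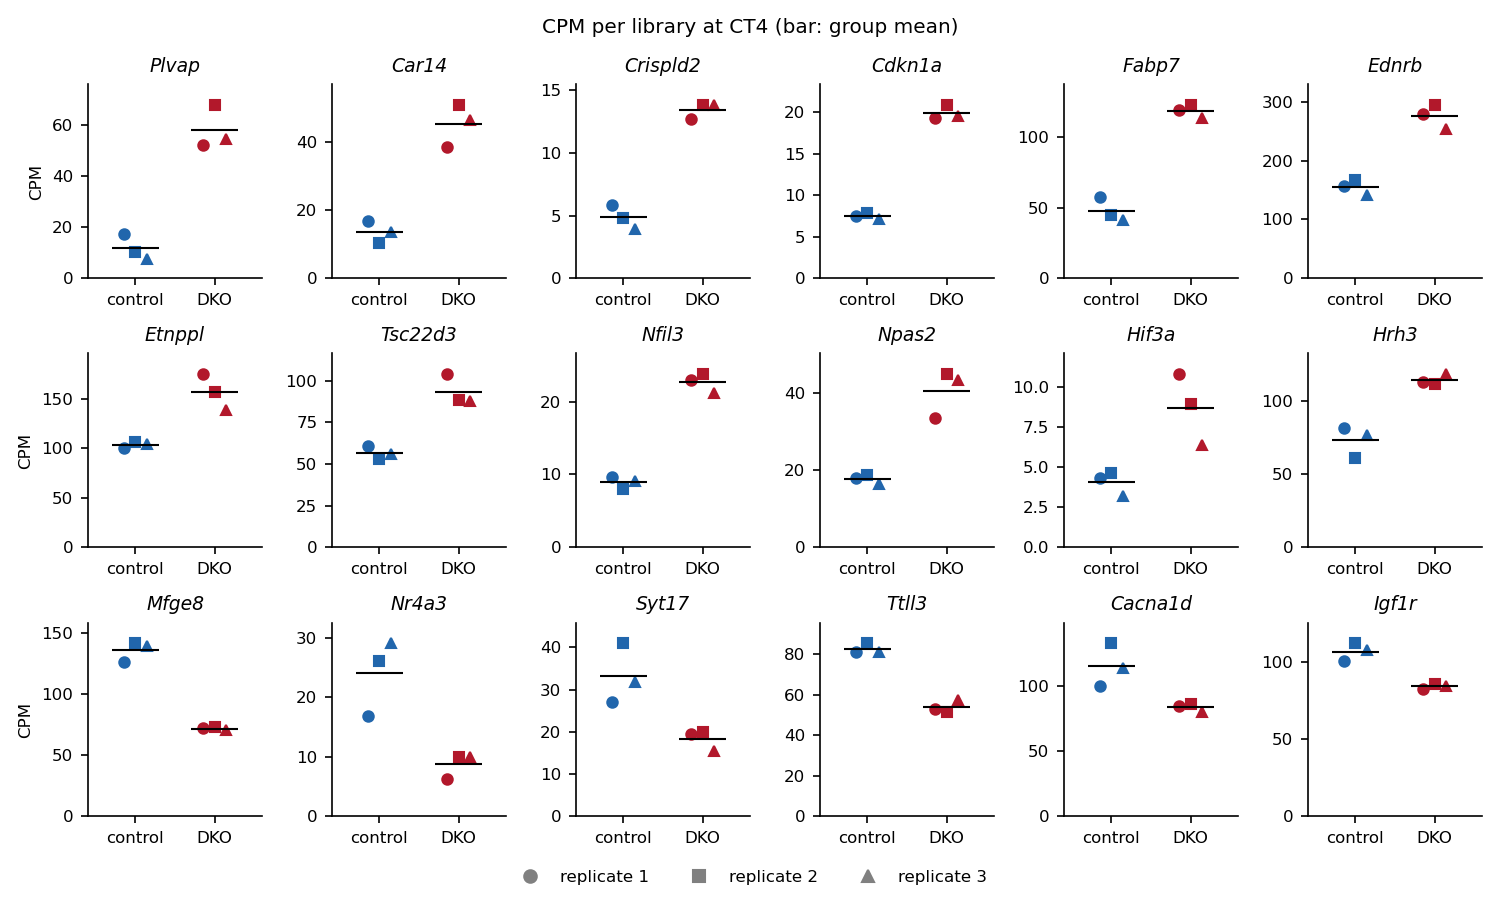
CPM (y axes, linear from 0) of 18 called genes in each CT4 library, control in blue on the left and DKO in red on the right of each panel; the marker shape is the replicate and the bar the group mean. The top rows hold 12 genes that rose and the bottom row 6 that fell; for Nr4a3, Syt17 and Cacna1d control replicate 1 is the control nearest to DKO.

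Fabp7, Ednrb and Etnppl, which are known from astrocytes among other cells, rose, while none of the 14 astrocyte markers was called and their sum was lower in DKO. Fabp7, which carries fatty acids in astrocytes and neural progenitors, stood at 119, 122 and 113 CPM in DKO and 57.4, 44.9 and 41.4 CPM in control, and rose by 1.30 ± 0.18. Of 20 genes of fatty acid binding, elongation and desaturation it was the only one called, 12 of the 20 lay below 0, and the median was -0.04. Ednrb, the endothelin B receptor, stood at 279, 294 and 254 CPM in DKO and 157, 167 and 142 CPM in control. It rose by 0.83 ± 0.12 and was among the most widely kept calls. Etnppl, which breaks down phosphoethanolamine, stood at 175, 157 and 139 CPM in DKO and 100, 106 and 104 CPM in control, and rose by 0.60 ± 0.08. The lowest DKO library of Etnppl was still well above the highest control.

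Kcnj10, the Kir4.1 potassium channel of glia, stood at 822, 871 and 753 CPM in DKO and 605, 647 and 622 CPM in control. It rose by 0.38 ± 0.08, and the edgeR adjusted p was 0.0386 with all libraries and 0.0856 without control replicate 1. Dbi, the acyl-CoA and diazepam binding protein, rose by 0.52 ± 0.10 and the phospholipid transfer protein gene Pltp by 0.47 ± 0.07. Of the 14 astrocyte markers 9 lay below 0: Slc1a3, a glutamate transporter, stood at -0.14 ± 0.07 and Aldh1l1 at -0.28 ± 0.07 (edgeR adjusted p = 0.0695). Cyp4f15, a fatty acid hydroxylase, went down from 19.9, 19.7 and 21.6 CPM to 12.3, 12.7 and 14.8 CPM (-0.62 ± 0.12), the only one of 36 cytochrome P450 genes that was called. Ednrb, Etnppl, Dbi and Pltp were chosen after their values were seen.

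Mfge8 (chromosome 7, 79133768 to 79149060, mm10) had the smallest p-value of all genes. It encodes a secreted bridge between phosphatidylserine on dying cells and the integrins of phagocytes. The DKO libraries stood at 71.9, 73 and 70.6 CPM and the controls at 126, 142 and 140 CPM, so that the spread within each group was small beside the gap. Mfge8 fell by 0.92 ± 0.08 (edgeR, adjusted p = 6.62e-05), with log2 fold changes of -0.99 to -0.88 over the alternatives. The other 14 genes of phagocytosis and apoptotic cell clearance were not called, and the median of the list was -0.02.

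Of 18 genes known to be induced by glucocorticoids, 3 rose and 15 were not called, and 13 lay above 0. Cdkn1a, which encodes the cell cycle inhibitor p21, stood at 19.3, 20.9 and 19.5 CPM in DKO and 7.56, 7.91 and 7.14 CPM in control, and rose by 1.40 ± 0.16. Tsc22d3, which encodes the anti-inflammatory protein GILZ, stood at 104, 88.5 and 87.9 CPM in DKO and 61, 52.8 and 55.8 CPM in control, and rose by 0.72 ± 0.08. Both were called in every alternative. Klf9, a transcription factor that thyroid hormone induces as well, rose by 0.51 ± 0.11, with an edgeR adjusted p of 0.0339, and of 0.0638 without control replicate 1. Fkbp5, another gene of the list, stood at 0.19 ± 0.19, and Sgk1 at 0.39 ± 0.52. Fkbp5 and Sgk1 were chosen after their values were seen.

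Cdkn1a is also a target of p53, but no other p53 target of the list was called higher. Of 21 genes in that list, Cdkn1a was the only one called higher, and Pmaip1, which encodes the cell death protein NOXA, fell by 1.34 ± 0.29. Pmaip1 stood at 2.49, 1.15 and 1.49 CPM in DKO and 2.49, 5.22 and 5.4 CPM in control, where control replicate 1 was level with the highest DKO library. The list had a median of 0.002. Of 21 genes of proliferation, Ccnd2, a cyclin of the G1 phase, rose from 11.7, 12 and 13.1 CPM to 20.4, 20.9 and 16.6 CPM (0.66 ± 0.12), and 20 were not called. The median of that list was 0.29, against -0.002 for all genes. With the score of neighbouring nuclei as a covariate neither Pmaip1 nor Ccnd2 was called (edgeR adjusted p = 0.283 and 0.0978).

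Thyroid hormone handling had a median of 0.47 over 12 genes, but Klf9 alone was called. Among the others, Dio2, the enzyme that activates thyroid hormone and a tanycyte marker, stood at 5.76, 7.78 and 8.7 CPM in DKO and 5.38, 3.12 and 3.13 CPM in control, with control replicate 1 just below the DKO libraries. With the score of neighbouring nuclei as a covariate the median of the 12 genes was 0.03. The list shares tanycyte and hypothalamic genes with the marker lists that differ between the libraries, and the part of dissection in it was not tested.

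Signals from outside the cell gave few calls. Igf1r, the receptor of insulin-like growth factor 1, stood at 82.3, 85.7 and 84.4 CPM in DKO and 100, 112 and 107 CPM in control, and fell by 0.34 ± 0.06. It was the only gene called of 26 genes of growth and neurotrophic factors and of 21 genes of feeding and energy balance. Of 14 genes of hedgehog signalling and the primary cilium, 12 lay below 0 and the median was -0.14. Gli1, the transcription factor whose level follows pathway activity, fell from 30.2, 32.8 and 28.9 CPM to 22.9, 24.1 and 23.8 CPM (-0.38 ± 0.09). Ptch1, a receptor and target of the same pathway, stood at 164, 164 and 153 CPM in DKO and 198, 216 and 212 CPM in control without being called (-0.38 ± 0.09, edgeR adjusted p = 0.0578). The call of Gli1 was lost in 11 of 19 alternatives, with an edgeR adjusted p of 0.0749 without control replicate 1. Stk36, a kinase tied to hedgehog signalling, and Ift172, a carrier inside cilia, fell by 0.49 ± 0.09 and 0.27 ± 0.05. With the score of neighbouring nuclei as a covariate, Igf1r, Gli1, Stk36 and Ift172 were not called (edgeR adjusted p = 0.083, 0.283, 0.0965 and 0.117). Ptch1 and Stk36 were chosen after their values were seen.

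Nr4a3, an orphan nuclear receptor and immediate early gene, stood at 6.35, 9.98 and 10 CPM in DKO and 16.9, 26.1 and 29.1 CPM in control. It fell by 1.45 ± 0.29. With the score of neighbouring nuclei as a covariate its log2 fold change was -1.07, and it was not called (edgeR adjusted p = 0.172). Of 25 immediate early genes it was the only one called: Fos stood at 0.32 ± 0.41 and Egr1 at 0.80 ± 0.31, and DKO replicate 3 was the lowest DKO library of both. Hif3a, a member of the hypoxia-inducible factor family, stood at 10.8, 8.91 and 6.34 CPM in DKO and 4.32, 4.6 and 3.19 CPM in control, and rose by 1.10 ± 0.18. With the same covariate Hif3a was not called (edgeR adjusted p = 0.081). The other 16 genes of the hypoxia list were not called, and their list had a median of 0.05. Fos and Egr1 were chosen after their values were seen.

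In the immune lists 1 gene fell and none rose. Ciita, the master activator of MHC class II genes, stood at 1.63, 1.67 and 2.11 CPM in DKO and 3.18, 3.8 and 3.63 CPM in control. It fell by 0.97 ± 0.21, but was not called with the score of neighbouring nuclei as a covariate (edgeR adjusted p = 0.171). The MHC class II and antigen presentation list as a whole leaned the other way, with 13 of 16 genes above 0, a median of 0.21 and no rise called. No gene was called among 18 interferon response genes, 18 genes of complement and reactive glia or 92 chemokines, interleukins and their receptors. Outside these lists the complement regulator gene Cfp fell by 0.40 ± 0.09 and the complement receptor gene Cr2 by 2.06 ± 0.48, and both lost the call with the score of neighbouring nuclei as a covariate (edgeR adjusted p = 0.27 and 0.364). Cfp and Cr2 were chosen after their values were seen. Lbp, which binds bacterial lipopolysaccharide, rose from 7.64, 7.15 and 5.98 CPM to 15.1, 18.5 and 19.9 CPM (1.36 ± 0.20).

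**Figure D4:**
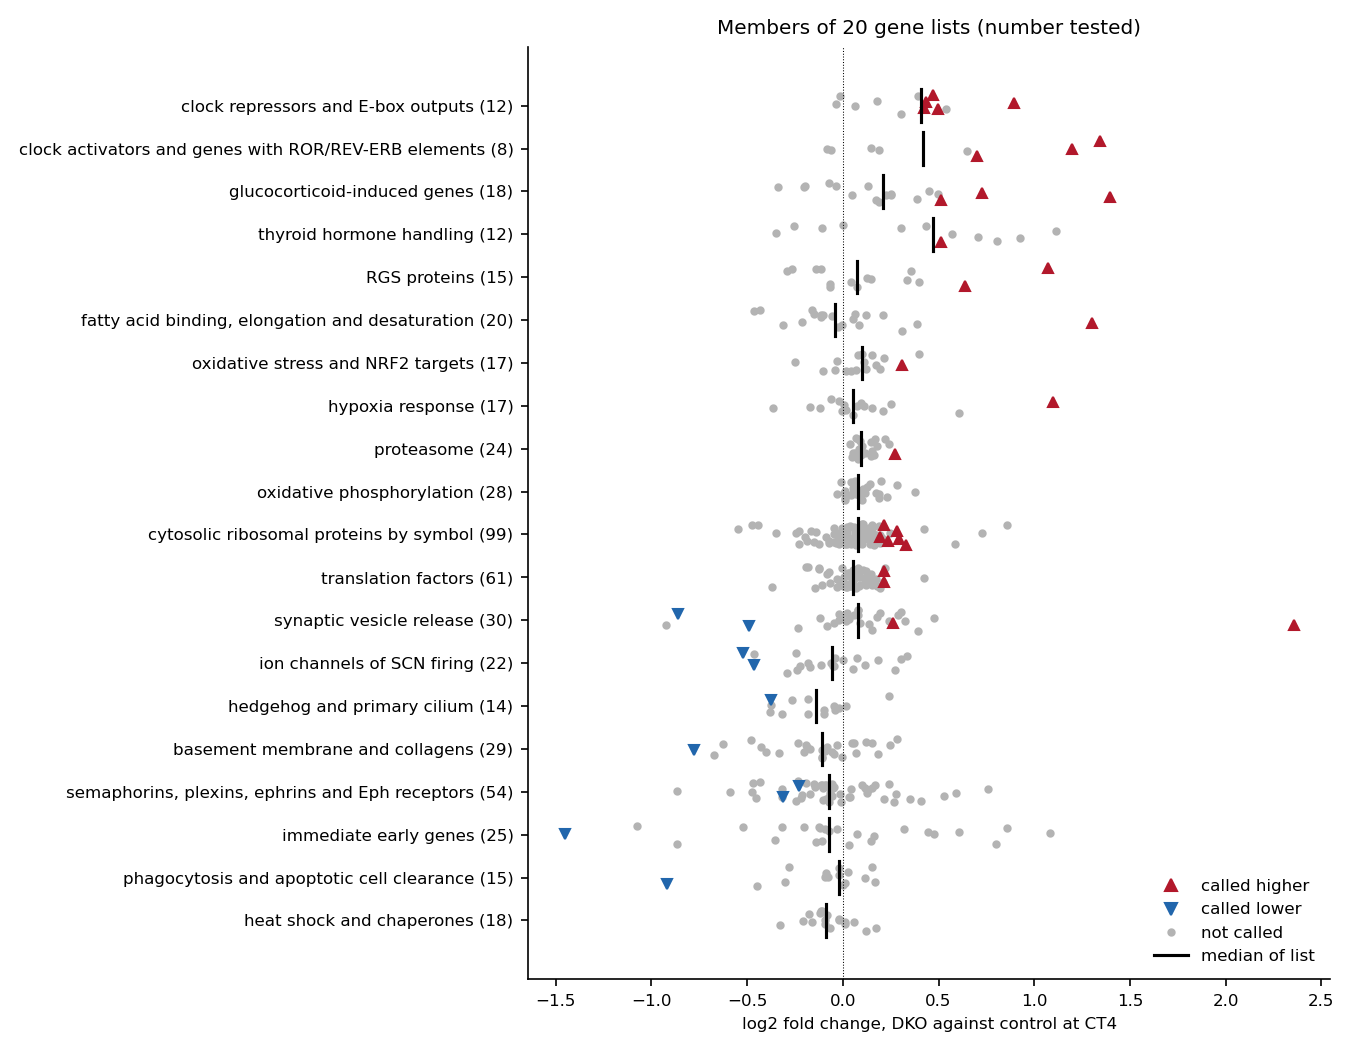
Log2 fold change of DKO against control at CT4 (x axis) for each tested member of 20 gene lists (number tested in brackets), with called genes as triangles, other genes as grey points and the list median as a bar. All 24 proteasome genes lie above 0 with 1 called, and 12 of 14 hedgehog and cilium genes lie below 0 with 1 called.

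Of 22 ion channel genes that shape the firing of SCN neurons, 2 fell (both calcium channels), none rose, and 15 lay below 0. Cacna1d, an L-type calcium channel active near the resting potential, stood at 85, 86 and 80.4 CPM in DKO and 99.8, 133 and 114 CPM in control, and fell by 0.46 ± 0.10. Cacna1i, a T-type calcium channel, stood at 94.3, 88 and 81.5 CPM in DKO and 124, 122 and 133 CPM in control, and fell by 0.52 ± 0.12. Control replicate 1 was the lowest control for Cacna1d but not for Cacna1i. With the score of neighbouring nuclei as a covariate neither was called (edgeR adjusted p = 0.211 and 0.265), and without control replicate 1 Cacna1i was not (0.0746). Cacna1s, the L-type channel known from skeletal muscle, rose from 3.07, 2.51 and 2.23 CPM to 4.16, 5.65 and 5.93 CPM (1.00 ± 0.21). Cacna1s also lost its call with the score of neighbouring nuclei as a covariate (edgeR adjusted p = 0.18). Of 88 potassium channel subunits, Kcnj10 and Kcne1l rose and 86 were not called.

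Genes of vesicle release split. Of 30 genes in the list, Cplx3 and Vamp2 rose and Syt17 and Unc13b fell. Cplx3, a complexin best known from retinal ribbon synapses, was low in control, at 1.16, 0.411 and 0.522 CPM against 3.68, 3.62 and 3.57 CPM in DKO, and rose by 2.35 ± 0.50. Vamp2, the main vesicle SNARE of brain synapses, rose by 0.26 ± 0.06 from 642, 686 and 668 CPM to 774, 813 and 804 CPM, and lost its call in 14 of 19 alternatives. Syt17 stood at 19.5, 20 and 15.6 CPM in DKO and 27.1, 41 and 31.9 CPM in control, and fell by 0.86 ± 0.15. Unc13b, which primes vesicles, fell by 0.49 ± 0.09, and Pclo, which encodes a scaffold of the active zone, by 0.36 ± 0.08. For Syt17, Unc13b and Pclo control replicate 1 was the lowest control, and each lost its call with the score of neighbouring nuclei as a covariate (edgeR adjusted p = 0.0992, 0.107 and 0.302).

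Other fallen neuronal genes had that same order of controls. Synpr, a vesicle membrane protein, stood at 50.8, 42.4 and 48.1 CPM in DKO and 61.1, 90.3 and 78.5 CPM in control (-0.70 ± 0.15). Ppp1r17, an inhibitor of protein phosphatases, stood at 13.5, 12 and 13.9 CPM in DKO and 17.4, 26.8 and 21.6 CPM in control (-0.75 ± 0.14). Cadps2, which acts in the release of dense core vesicles, stood at 149, 128 and 135 CPM in DKO and 155, 235 and 199 CPM in control (-0.52 ± 0.11). The SCN marker sums are also lowest in control replicate 1 among the controls, and the part of dissection in these falls was not tested. Without control replicate 1 all 3 were called, at -0.84, -0.89 and -0.66, and with the score of neighbouring nuclei as a covariate none of them was (edgeR adjusted p = 0.264, 0.139 and 0.302). Pclo and Cadps2 were chosen after their values were seen.

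Receptors and their regulators rose in a few cases. Of 15 RGS proteins, which shorten signals of G proteins, Rgs4 and Rgs6 rose. Rgs4 stood at 166, 152 and 129 CPM in DKO and 87.8, 55.6 and 69 CPM in control, with control replicate 1 the highest control (1.07 ± 0.23). Rgs6 rose by 0.64 ± 0.13. Hrh3, the histamine H3 receptor that limits transmitter release, stood at 113, 112 and 118 CPM in DKO and 81.7, 61.3 and 76.6 CPM in control, and rose by 0.64 ± 0.12. Gpr6, a receptor that raises cyclic AMP without a known need for a ligand, rose from 3.7, 3.7 and 3.51 CPM to 9.34, 9.43 and 7.98 CPM (1.29 ± 0.25), and lost its call without control replicate 1 (edgeR adjusted p = 0.0603). With the score of neighbouring nuclei as a covariate none of Rgs4, Rgs6, Hrh3 and Gpr6 was called (edgeR adjusted p = 0.25, 0.129, 0.131 and 0.18). Adcy3, an adenylyl cyclase of neuronal cilia, fell by 0.32 ± 0.07 as the only called gene of 26 in cyclic AMP signalling, of which 19 lay below 0. Adcy3 lost its call with that covariate as well (edgeR adjusted p = 0.26). None of 21 receptors of SCN neuropeptides and light input, 20 GABA and glycine receptors or 22 glutamate receptors was called. Hrh3 was chosen after its values were seen.

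Few genes of axon guidance and cell adhesion were called. Of 54 semaphorins, plexins, ephrins and Eph receptors, 2 fell, none rose and 36 lay below 0. Plxna3, a semaphorin receptor, stood at 135, 135 and 134 CPM in DKO and 169, 168 and 164 CPM in control, a narrow spread in both groups, and fell by 0.31 ± 0.05. Sema6c fell by 0.23 ± 0.05. Of 90 cadherins and protocadherins, Pcdh19 fell by 0.40 ± 0.09 and 53 lay below 0. Sema6c lost its call without control replicate 1 (edgeR adjusted p = 0.055), and both Sema6c and Pcdh19 with the score of neighbouring nuclei as a covariate (0.206 and 0.308). Ntn1, the guidance protein netrin 1, rose from 23.9, 19.6 and 21.3 CPM to 30.8, 30.8 and 27.6 CPM (0.46 ± 0.09). Ngef, an ephrin-linked exchange factor, and Rtn4r, the Nogo receptor, rose by 0.56 ± 0.11 and 0.74 ± 0.16. With that covariate none of these 3 was called (edgeR adjusted p = 0.134, 0.0978 and 0.162). Ngef lies head to head with Neu2, a sialidase gene that rose by 1.14 ± 0.23 from 1.27, 0.966 and 1.16 CPM to 2.79, 2.47 and 2.2 CPM. No strand setting of the counting is given in the sources used here, so reads where the 2 genes meet cannot be told apart by strand. Ntn1, Ngef and Rtn4r were chosen after their values were seen.

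Most genes of the ribosomal, proteasome and respiratory families lay slightly above 0, and few of them were called. Of 99 genes with symbols of cytosolic ribosomal proteins, 6 rose, none fell and 71 lay above 0, with a median of 0.08. Rps24 stood at 264, 246 and 267 CPM in DKO and 203, 204 and 211 CPM in control (0.33 ± 0.05), and Rpl21 at 325, 309 and 310 CPM against 256, 262 and 254 CPM (0.29 ± 0.05). Rpl36a, Rpl27a, Rpl35 and Rpl4 rose by 0.28 to 0.19, and these 4 were not called without control replicate 1, where 2 of the 99 were higher and 1 was lower. Rpl27a was chosen after its values were seen. Such genes have many processed copies in the genome, and how reads shared with copies were counted is not given in the sources used here. All 24 proteasome subunit genes lay above 0, with a median of 0.09, but only Psma4 was called (0.27 ± 0.05). For 12 of the 24 every DKO library lay above every control, as it did for 12.1% of all genes tested. Of 88 genes with symbols of oxidative phosphorylation subunits 71 lay above 0, and of 77 mitochondrial ribosomal proteins 59, with none called in either family. Of 61 translation factors, Eif5b and Eef1b2 rose by 0.22 ± 0.05 and 0.21 ± 0.05. Other lists of protein synthesis and breakdown did not lean that way: 8 of 17 genes of translation initiation and the integrated stress response, 18 of 37 aminoacyl-tRNA synthetases and 17 of 48 ubiquitin proteases lay above 0.

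Npm1, Ncl, Ddx21 and Utp3, which act in the nucleolus, rose by 0.28 ± 0.06, 0.25 ± 0.06, 0.25 ± 0.06 and 0.30 ± 0.06. All 4 lost the call without control replicate 1 (edgeR adjusted p = 0.087, 0.117, 0.114 and 0.0603) and with the score of neighbouring nuclei as a covariate. Ncl, which encodes nucleolin, stood at 382, 347 and 375 CPM in DKO and 295, 331 and 302 CPM in control. Ppia, the abundant prolyl isomerase cyclophilin A that is often taken as a reference gene, stood at 610, 547 and 572 CPM in DKO and 448, 460 and 464 CPM in control (0.33 ± 0.05). These 5 genes were chosen after their values were seen. The direction was the same with RLE or upper quartile scaling and in DESeq2, where the median of the 99 ribosomal genes was again 0.08.

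Dnmt3a, Kmt2c and Trrap, which act on chromatin, were among the falls. Dnmt3a, a DNA methyltransferase, stood at 148, 150 and 149 CPM in DKO and 171, 188 and 185 CPM in control (-0.28 ± 0.06). Kmt2c, a histone H3 methyltransferase, stood at 230, 235 and 236 CPM in DKO and 279, 286 and 282 CPM in control (-0.27 ± 0.06). Trrap, a scaffold of acetyltransferase complexes, stood at 305, 310 and 313 CPM in DKO and 365, 358 and 363 CPM in control (-0.23 ± 0.04). Kmt2c lost its call without control replicate 1 (edgeR adjusted p = 0.0844), and all 3 with the score of neighbouring nuclei as a covariate (0.234, 0.322 and 0.0684). These 3 were chosen after their values were seen. None of 16 REV-ERB corepressor and chromatin genes was called, and 13 lay below 0 with a median of -0.08. Of 418 C2H2 zinc finger genes, 1 rose and 3 fell (0.957% called, against 1.28% of all genes tested).

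These small shifts went with gene length. In the quartile of genes with the shortest summed exons (30 to 1758 bases), 32 were called higher and 11 lower, and in the longest (4289 to 104320 bases) 20 were called higher and 63 lower. The median log2 fold change passed from 0.04 in the shortest quartile through 0.01 and -0.01 to -0.04 in the longest. All 3 DKO libraries had a higher median for the shortest quartile than all 3 controls, and a lower one for the longest. Ribosomal, proteasome and respiratory genes are short and Kmt2c and Trrap are long, so for these genes a shift of the pathway and a shift by length cannot be told apart here. The 6 libraries have no label for RNA quality, and its part was not tested.

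**Figure D5:**
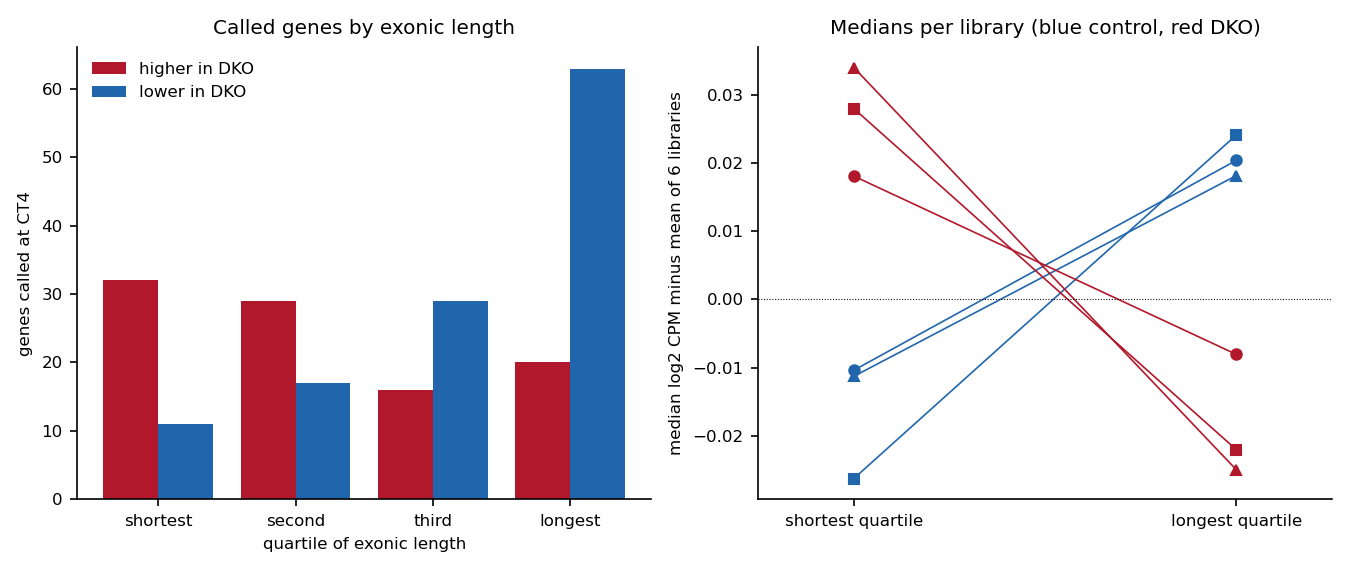
Left: number of genes called higher (red) and lower (blue) in DKO at CT4 in each quartile of summed exon length. Right: per library, the median over the shortest and the longest quartile of log2 CPM minus the mean of the 6 libraries (circle, square and triangle for replicates 1, 2 and 3); DKO libraries run from 0.02 to 0.03 down to -0.01 to -0.02, and control libraries the opposite way.

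Genes of detoxification rose in part. Of 38 aldehyde dehydrogenases and glutathione transferases, Gstm1 and Gstt3 rose. Gstm1 stood at 328, 398 and 404 CPM in DKO and 297, 266 and 285 CPM in control (0.41 ± 0.09), and Gstt3 at 15.9, 21.1 and 19.3 CPM against 11.7, 9.92 and 10.9 CPM (0.80 ± 0.18). Ephx1, an epoxide hydrolase, rose from 28.5, 25.5 and 27.5 CPM to 39.2, 45.4 and 42.2 CPM (0.64 ± 0.11), and was chosen after its values were seen. Of 17 genes of the oxidative stress response 13 lay above 0, and Gpx1, which reduces hydrogen peroxide, rose by 0.31 ± 0.06. Gstm1, Gstt3 and Gpx1 lost their calls without control replicate 1 (edgeR adjusted p = 0.0595, 0.0605 and 0.068). With the score of neighbouring nuclei as a covariate none of Gstm1, Gstt3, Ephx1 and Gpx1 was called (edgeR adjusted p = 0.212, 0.171, 0.083 and 0.171). Aoc1, which oxidises diamines such as histamine, was low in all libraries, at 1.42, 2.47 and 1.49 CPM in DKO and 0.291, 0.411 and 0.464 CPM in control, and rose by 2.21 ± 0.38.

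RNA binding and transport gave mixed results. Rbm3, induced by mild cold, stood at 58.1, 50 and 53.7 CPM in DKO and 34.2, 36.4 and 36.7 CPM in control, and rose by 0.59 ± 0.09, while the splicing factor gene Tra2a fell by 0.36 ± 0.08 in the same list of 14. With the score of neighbouring nuclei as a covariate neither Rbm3 nor Tra2a was called (edgeR adjusted p = 0.0594 and 0.209). None of 18 heat shock and chaperone genes was called, and 13 of them lay below 0. Of 331 genes with symbols of solute carriers none rose and 5 were called lower, and 165 lay above 0 and 166 below. The calls were 1.51% of the 331, near the 1.28% called among all genes tested. The 5 include Slc2a4rg-ps, taken in by a symbol that marks a pseudogene and not a carrier. Also among the 5, the manganese exporter gene Slc30a10 fell by 0.40 ± 0.09, the inositol carrier gene Slc5a3 by 0.44 ± 0.09 and the neutral amino acid carrier gene Slc38a1 by 0.23 ± 0.05. None of the 331 was called with the score of neighbouring nuclei as a covariate. Ttll3, a tubulin glycine ligase of cilia, stood at 53, 51.4 and 57.3 CPM in DKO and 81.4, 85.5 and 81.3 CPM in control, and fell by 0.62 ± 0.10. It was chosen after its values were seen. The lists of cholesterol synthesis (22 genes), glycolysis (21), fatty acid synthesis and oxidation (23), Notch (18), Wnt (30), TGF-beta and BMP (29) and the unfolded protein response (20) held no called gene, with medians between -0.08 and 0.08.

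Set beside the subjective night, the rises and falls of CT4 differed in how far they recurred. The 97 rises had a median log2 fold change of 0.46 at CT4 and 0.48 at CT16. Of them, 60 were also called higher at CT16, where 4.66% of genes were called in either direction. The 120 falls had medians of -0.37 and -0.08, and 15 were also called lower at CT16. The 2 times share no library, but the fitted spread is common to both. Both sets were chosen by their CT4 values, so their CT4 medians may be overstated beside those of CT16. By how much was not tested. Rbm3 stood at 0.59 at CT4 and 0.07 at CT16, Igf1r at -0.34 and 0.09, Unc13b at -0.49 and 0.05, and Cacna1d at -0.46 and 0.08. Atpif1, an inhibitor of the mitochondrial ATP synthase, rose at CT4 (0.24 ± 0.05) and fell at CT16 (-0.18 ± 0.04), and Nsun7 went the opposite way (-0.38 ± 0.09 and 0.31 ± 0.07). For both the edgeR test of the difference gave an adjusted p of 0.0511. Neither Atpif1 nor Nsun7 was called at CT4 without control replicate 1 (edgeR adjusted p = 0.0855 and 0.0729). The same held with the score of neighbouring nuclei as a covariate (edgeR adjusted p = 0.18 and 0.287).

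That test of the difference between the times, the interaction of genotype and time, called 2 of 16910 genes (0.0118%), while 2557 had an unadjusted p under 0.05, and DESeq2 and limma voom called 368 and 422. Fabp7 was 1 of the 2: its rise at CT4 was smaller than that at CT16 (1.30 against 3.76), and the difference was -2.46 ± 0.24 on the log2 scale (edgeR, adjusted p = 0.00192). Hif3a, at 1.10 in the day and -0.34 in the night, was not called in it (edgeR, adjusted p = 0.0511). For the other genes named above, a call at 1 time alone does not show that the times differ.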

How the data were processed

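Total RNA of SCN punches was sequenced in 15 libraries, prepared with a TruSeq kit and run on an Illumina instrument, per the labels and design text. The authors deposited read counts per gene and library as whole numbers, not normalized; per the submitters' processing notes STAR, featureCounts, DESeq2 and the build mm10 were used. Their versions, the strand setting and the annotation are not stated there. Labels assigned each library to its group.

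The tests were run with edgeR 4.0.16 under R 4.3.3: filterByExpr on the 4 groups kept 16910 of 24419 genes, TMM factors were used, and 1 robust quasi-likelihood model with 4 group means and 11 residual degrees of freedom was fitted to the 15 libraries. The standard error is |log2 fold change| over the square root of F. CPM are TMM-scaled, and log2 CPM used a prior count of 2. The steps were tested on simulated data. The alternatives were scaling by RLE or by upper quartile, DESeq2 1.42.0, voom of limma 3.58.1 with quality weights, all genes with a count, a stricter filter (1 CPM in 3 libraries), the CT4 libraries alone, no robust option, a replicate block, tissue scores as covariates, and each CT4 library left out. The exclusion of 3 libraries (control CT4 replicate 1 and DKO CT16 replicates 3 and 4) was chosen after seeing the data. Replicates of the CT4 groups correlated at 0.988 to 0.99 in log2 CPM and differed by more than sampling noise (chi-square per degree of freedom 6.77 or more), so each counted once.

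Named were Nr1d1 and Nr1d2, the 15 genes that rose most and the 15 that fell most. Those 15 and 15 were taken from called genes whose mean log2 CPM was 1 or more and whose groups did not overlap. Also named were up to 5 members of smallest p of each of 65 lists and 41 families with a called member (3 where none was called). To these were added the 10 genes of smallest interaction p among those called at CT4, and the 4 most abundant markers of each tissue list. Not all of these are printed, and some genes that meet the rules are not reported here. The libraries and lists were chosen with earlier results of these data known, so lists are given by counts and medians with no test. Promoters are from RefSeq. Figures were drawn with matplotlib 3.10.9.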

Additional observations from a re-analysis of the deposited data

Results flagged for a closer look

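The effect of DKO differed between CT4 and CT16 for 2 genes in the test of that difference (edgeR, interaction of genotype and time). For Fabp7, the fatty acid binding protein gene of astrocytes, the log2 fold change at CT4 minus that at CT16 was -2.46 ± 0.24 (adjusted p = 0.00192): the DKO libraries were higher at both times, by 1.30 in the subjective day and 3.76 in the subjective night. For Pla2g3, a secreted phospholipase A2 gene, the difference was -1.79 ± 0.27 (adjusted p = 0.0382). Pla2g3 stood at 7.14, 7.1 and 6.02 CPM in the DKO libraries and 4.17, 5.51 and 4.82 CPM in the control libraries at CT4, where it was not called (0.48 ± 0.21, edgeR adjusted p = 0.281), and at 2.28 ± 0.17 on the log2 scale at CT16.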

How the results depend on the processing

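As reported, 217 genes were called at CT4, 97 higher and 120 lower, and 2 for the interaction. RLE, upper quartile, both filters and the fit without the robust option gave 165 to 208 genes. DESeq2 gave 591 (230 higher, 361 lower, 368 for the interaction), limma voom 849 (349, 500 and 422) and the CT4 libraries alone 828 (390 and 438, no interaction). With a covariate, the score of neighbouring nuclei gave 25 (20, 5 and 1), of myelin 689 (303, 386 and 83) and of SCN identity 48 (38, 10 and 0, with 928 interaction genes at an unadjusted p under 0.05 in edgeR; no other tool was run with it). The share of rises among calls was 44.7% as reported, 80% with the neighbouring score and 79.2% with the SCN score. For the interaction, all genes with a count and the fit without the robust option gave 6 each. Excluding 3 libraries gave 606 (227, 379 and 423). Leaving out each CT4 library in turn gave 16 to 190 genes, 11 to 73 higher and 4 to 117 lower, and 1 to 4 for the interaction.

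Whether the replicate numbers pair the samples is not known. Same-numbered DKO and control libraries correlated at -0.06, -0.02 and -0.05 in their deviations from the group means, and differently numbered ones at -0.01 to 0.06. With 3 libraries a group these values cannot settle it. With the number as a replicate block 45 genes were called (28 higher, 17 lower), 39 of them among the 217. Over 428 genes and all alternatives, 6091 values stayed on their side of the threshold, 1777 lost the call and 251 gained it. None changed direction where the gene was called as reported or in the alternative. Any changes of direction in genes called in neither were not counted apart and fall within the 6091. The cause of the losses and gains was not tested. The 6 libraries limit the precision, and genes under 1 CPM rest on few counts.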
